A study of Saccharomyces cerevisiae with 32 samples.

Results

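A set of 10 yeast genes of purine synthesis and cytosolic one-carbon metabolism is described here across all 8 genotype and temperature groups of a ribosome profiling study. The 10 members are ADE4, ADE8, ADE6, ADE1, ADE13, ADE16, ADE17, ADE12, SHM2 and MTD1, out of 5328 genes in the deposited tables, of which 4836 were in all 4 tables. They were taken by gene symbol from every table, as a set that had been chosen by its measured footprint and mRNA values in these same libraries. Their differences between mutant and wild type are therefore given as a description, with no test.

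De novo purine synthesis builds the purine ring stepwise on phosphoribosyl pyrophosphate (PRPP) until inosine monophosphate (IMP) is made, and IMP is then turned into AMP or GMP. A pair of steps in this route take a formyl group from a folate carrier, which is loaded with carbon that comes largely from serine through the cytosolic one-carbon enzymes. In budding yeast many of these genes are known to be activated together by the transcription factors Bas1 and Pho2 when purines run short. They are known to be less active when adenine is supplied. The mutated proteins, Ded1 and eIF4A, are helicases of the DEAD-box family that help ribosomes start on mRNAs.

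The study measured mRNA and ribosome footprints in 32 samples, 16 of each kind, which form 16 groups of 2 labelled replicates. A cold-sensitive DED1 strain (ded1-cs, NSY5) was set against its wild-type DED1 strain (NSY4) at 15 °C, and a temperature-sensitive DED1 strain (ded1-ts, NSY11) against another wild-type DED1 strain (NSY10) at 37 °C. A temperature-sensitive TIF1 strain (tif1-ts, NSY21), mutated in 1 of the pair of near-identical eIF4A genes, was set against wild-type TIF1 (NSY20) at 30 °C and at 37 °C. All cultures grew in synthetic complete medium and received cycloheximide, which halts elongating ribosomes, shortly before harvest. Each group is 1 named strain, wild-type DED1 being a different strain at each temperature, and the labels do not give the state of TIF2 or the adenine content of the medium.

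The deposited tables hold 1 log2 level per gene, assay and group, with no replicate columns, so no difference below has a replicate check and no p-value was computed. Translational efficiency (TE) is the footprint level minus the mRNA level, both log2. The median footprint level over all genes was nearly equal in wild type and mutant. It was 8.48 and 8.48 in the ded1-ts comparison and 7.01 and 7.03 in that of tif1-ts at 37 °C. Higher and lower below are thus relative to other genes, and total mRNA or footprints per cell were not measured. The footprint libraries held about 3.88 to 12.03 M reads per group, the mRNA depth is unknown, and all 10 genes passed the abundance floor of 10 in every table. The members were read by 141 to 25302 footprints per group, which gave counting standard errors of 0.02 to 0.13 for their log2 footprint differences; these cover counting error only. DED1 itself had an mRNA difference of 0.95 in ded1-cs and -0.77 in ded1-ts in the authors' deposited table, while TIF1 was not analysed here and its partner TIF2, with which it may share reads, had mRNA differences of 0.04 and -0.21 in tif1-ts. In these bulk cultures, fewer cells with a transcript and less RNA per cell cannot be told apart.

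Most of the 10 genes were well expressed. Their median mRNA level stood 2.80 log2 units above the median gene in wild-type DED1 at 15 °C, 1.60 in wild-type DED1 at 37 °C, 2.00 in wild-type TIF1 at 30 °C and 1.8 in wild-type TIF1 at 37 °C. The corresponding median footprint level stood 3.25, 2.59, 1.70 and 1.46 log2 units above the median gene. The set therefore had a median TE level above that of the typical gene in both wild-type DED1 cultures, by 0.51 and 0.68, and below it in wild-type TIF1, at -0.33 and -0.05. The tables were normalized separately, so these levels are set side by side and the strains were not compared by a test.

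Per kilobase of coding sequence, SHM2 had the highest footprint level of the 10 genes in all 8 groups and the highest mRNA level in 7 of them. ADE16 had the highest mRNA level per kilobase in ded1-ts, where SHM2 was at place 3. ADE6, with the longest coding sequence of the set at 4077 nt, had the lowest mRNA level per kilobase in 6 of 8 groups. The lowest footprint level per kilobase belonged to MTD1 in 3 groups, ADE8 in 2, ADE17 in 2 and ADE16 in 1. ADE8 had the shortest coding sequence, at 645 nt, and a TE level below the median gene in every group, from -1.07 to -0.26. ADE6 lay above the median gene in TE in every group, by 0.46 to 1.44, and so did SHM2, by 0.40 to 1.92. With 1 value per group there is no spread against which neighbouring places could be told apart.

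**Figure D1:**
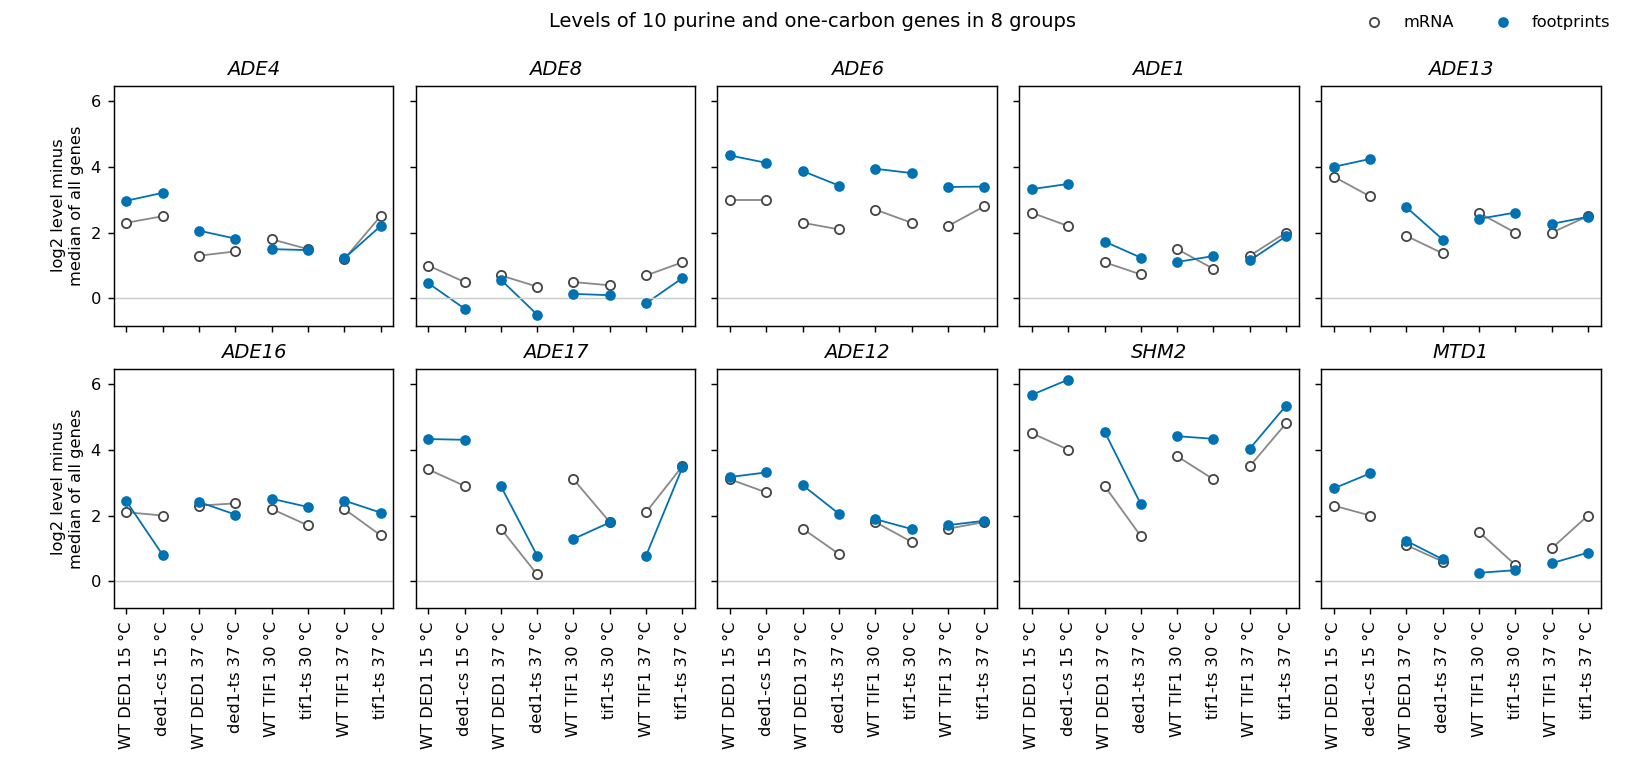
Log2 level of each of the 10 genes minus the median log2 level of all genes in the same column, for mRNA (open points) and footprints (filled points) in the 8 groups, with a line joining wild type and mutant of 1 table. The points of SHM2 lie highest in every group but ded1-ts, those of ADE8 lie between -0.49 and 1.1, and the lines of ADE17 and SHM2 are steep at 37 °C, downwards in ded1-ts and upwards in tif1-ts.

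In ded1-cs at 15 °C 9 of 10 members had lower mRNA, while 6 had higher and 4 lower footprints. Their median mRNA difference was -0.35 in the authors' deposited table, against a median of 0.03 and 46.6% below 0 over all genes. The median footprint difference of the members was 0.03 and their median TE difference 0.37 in the authors' deposited table, beside 0.07 and 0.10 over all genes. The means over the members were -0.21 for footprints and 0.083 for TE, from the authors' deposited table. ADE16 alone was past 2-fold, with 3.35-fold lower footprints and a 3.14-fold lower TE. Thus 1 of 10 members had footprints at least 2-fold lower, where 16.4% of all genes did, and 1 of 10 had such a TE, where 17.4% did. No member was 2-fold higher in footprints, TE or mRNA, where 6.26%, 8.63% and 0.844% of all genes were, or 2-fold lower in mRNA, where 2.04% were. The values that chose the members include these, so nothing is read from the counts here or in the next 3 comparisons.

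In ded1-ts at 37 °C all 10 members had lower footprints and a lower TE than in wild type. The median footprint difference was -0.72 and the median TE difference -0.48 in the authors' deposited table, against 0.01 and 0.08 over all genes. Over all genes, 49.3% had a footprint difference and 43.0% a TE difference below 0. mRNA was lower for 8 members, where 50.7% of all genes were lower, with a median difference of -0.35 in the authors' deposited table against -0.01 over all genes. SHM2, ADE17 and ADE8 had footprints at least 2-fold lower, 3 of 10 beside 6.19% of all genes. SHM2 and ADE17 also had at least 2-fold lower mRNA, 2 of 10 beside 2.58%. No member was 2-fold lower in TE, where 4.64% of all genes were, or 2-fold higher in footprints, mRNA or TE, where 8.57%, 2.52% and 4.18% were.

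In tif1-ts at 30 °C the mRNA of all 10 members was lower than in wild-type TIF1, while their footprints were close to level. The median mRNA difference was -0.50 in the authors' deposited table, against -0.01 over all genes, of which 51.8% were below 0. Footprints had a median difference of -0.03 and TE one of 0.39 in the authors' deposited table, with 9 members above 0 in TE where 54.6% of all genes were. ADE17 had 2.21-fold lower mRNA and was the only member at least 2-fold lower in mRNA, beside 1.03% of all genes. It was also the only one at least 2-fold higher in TE, beside 2.34%. No member was 2-fold lower in footprints or TE, or 2-fold higher in footprints or mRNA, where 1.49%, 1.14%, 4.28% and 1.3% of all genes were.

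In tif1-ts at 37 °C 9 of 10 members had higher mRNA and footprint levels, relative to other genes, than wild-type TIF1, with ADE16 as the exception in both. The median differences were 0.77 in mRNA and 0.55 in footprints in the authors' deposited table, against -0.04 and 0.01 over all genes. Of all genes, 46.9% were above 0 in mRNA and 51.0% in footprints. The mRNA of ADE17, ADE4, SHM2 and MTD1 was at least 2-fold higher, 4 of 10 beside 3.79% of all genes. Footprints of ADE17, SHM2 and ADE4 were at least 2-fold higher, 3 of 10 beside 6.37%. In TE the median difference was -0.12 in the authors' deposited table, and ADE17 alone was 2-fold higher, beside 5.27% of all genes. None was 2-fold lower in footprints, mRNA or TE, where 4.16%, 3.23% and 3.19% of all genes were.

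**Figure D2:**
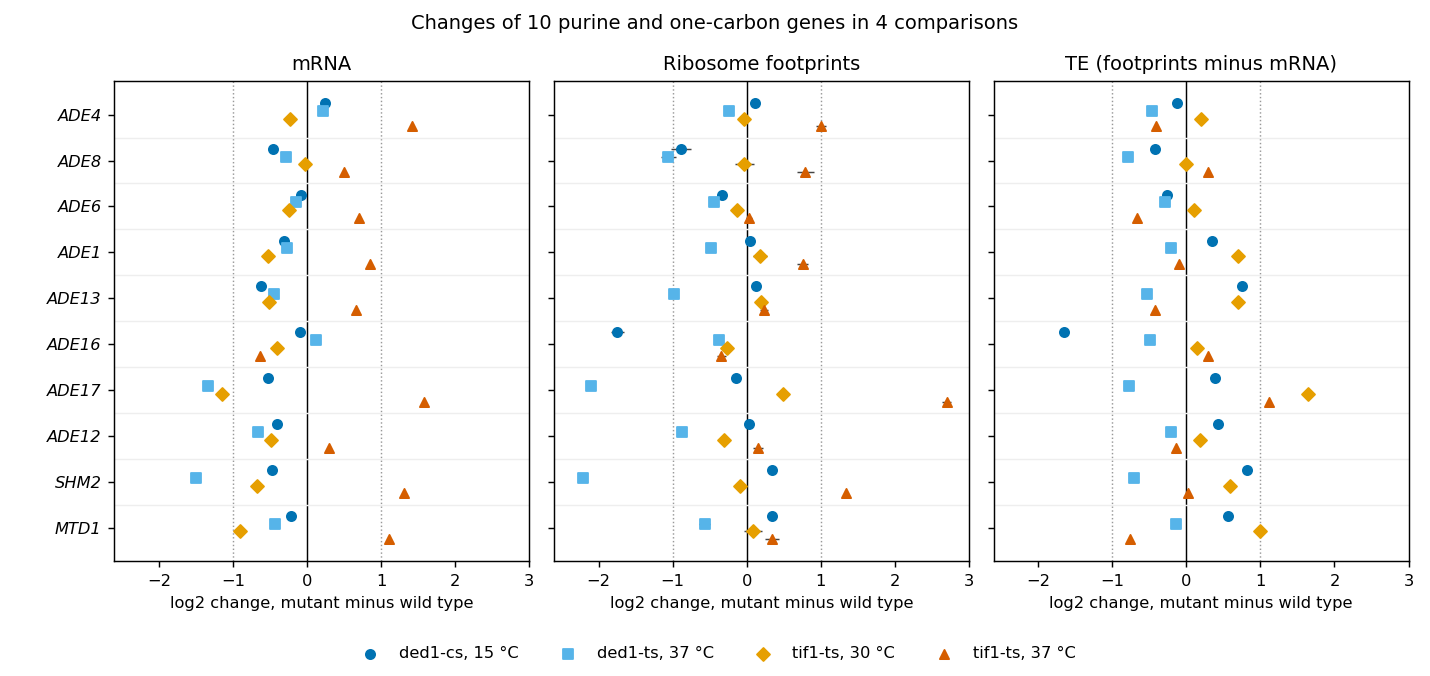
Log2 difference of mutant minus wild type for mRNA, footprints and TE of each of the 10 genes, with the 4 comparisons as separate markers, dotted lines at 2-fold and bars for the counting standard error of footprints. Most mRNA points of tif1-ts at 37 °C lie to the right of 0 and most others to the left, and ADE17 spans the widest range in footprints, from -2.11 to 2.70.

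The enzymes that build the ring were ADE4, ADE8, ADE6, ADE1 and ADE13, taken in pathway order. ADE4 (YMR300C) encodes the PRPP amidotransferase, which commits PRPP to purine synthesis. The mRNA level of ADE4 was 9.7 in wild-type DED1 and 9.9 in ded1-cs at 15 °C, 9.9 in wild-type DED1 and 10.1 in ded1-ts at 37 °C, 8.9 and 8.7 in wild-type TIF1 and tif1-ts at 30 °C, and 8.3 and 9.7 at 37 °C. The footprint levels in the same order were 10.31, 10.43, 10.54, 10.30, 8.52, 8.49, 8.22 and 9.23. Both assays were thus near level in 3 comparisons and higher in tif1-ts at 37 °C. At this temperature ADE4 had an mRNA difference of 1.42, rank 60 from the top of 4854 genes, and a footprint difference of 1.01 with a counting SE of 0.06 in the authors' deposited table. Centred on the median gene, that footprint difference was 0.99, just short of 2-fold, from the authors' deposited table. Alone among the members, ADE4 had an mRNA difference above 0 in ded1-cs, 0.24 in the authors' deposited table.

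ADE8 (YDR408C), the glycinamide ribotide transformylase, performs the first of the steps that take a formyl group. Its footprint level was 7.80 in wild-type DED1 and 6.91 in ded1-cs, 9.05 in wild-type DED1 and 7.99 in ded1-ts, 7.16 in wild-type TIF1 and 7.12 in tif1-ts at 30 °C, and 6.86 and 7.65 at 37 °C. Footprints were lower in both ded1 mutants, level in tif1-ts at 30 °C and higher at 37 °C. The footprint differences were -0.89 and -1.06 in ded1-cs and ded1-ts, each with a counting SE of at most 0.13, and mRNA differed by -0.46 and -0.28 in the authors' deposited table. ADE8 was the least deeply read member in these strains, with 141 footprints in ded1-cs and 307 in ded1-ts. It had the lowest TE difference of the members in ded1-ts, -0.78 in the authors' deposited table, next to that of ADE17 at -0.77.

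ADE6 (YGR061C), the formylglycinamidine ribotide synthetase, had footprint levels of 11.68 and 11.34 in wild-type DED1 and ded1-cs, 12.35 and 11.91 in wild-type DED1 and ded1-ts, 10.96 and 10.83 in wild-type TIF1 and tif1-ts at 30 °C, and 10.40 and 10.43 at 37 °C. It was among the steadiest members. Its mRNA difference of 0.70 in tif1-ts at 37 °C was accompanied by a footprint difference of only 0.04, which made a TE difference of -0.66 in the authors' deposited table.

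ADE1 (YAR015W) makes the intermediate SAICAR and ADE13 (YLR359W) is the lyase that turns it into AICAR. ADE13 acts a second time on the way from IMP to AMP, after ADE12. The footprint levels of ADE13 were 11.34 and 11.46 in wild-type DED1 and ded1-cs, 11.25 and 10.27 in wild-type DED1 and ded1-ts, 9.44 and 9.63 in wild-type TIF1 and tif1-ts at 30 °C, and 9.27 and 9.51 at 37 °C. The gene stood apart from level in ded1-ts, with a footprint difference of -0.98 and a counting SE of 0.05, just short of 2-fold in the authors' deposited table. ADE13 mRNA was lower in ded1-cs and in tif1-ts at 30 °C, by differences of -0.62 and -0.51, and footprints were not, so that its TE differences were 0.75 and 0.70 in the authors' deposited table. For ADE1 in tif1-ts, the authors' deposited table gave mRNA differences of -0.52 at 30 °C and 0.85 at 37 °C and TE differences of 0.70 and -0.10. Across all 12 differences ADE1 stayed within -0.52 to 0.85.

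ADE16 (YLR028C) and ADE17 (YMR120C) are isozymes that formylate AICAR and close the ring to IMP, the second step to use a formyl group. Their coding sequences have nearly the same length, 1776 and 1779 nt, and are alike in sequence, so reads may be shared between them, and the sources used here do not say how such reads were assigned. The footprint level of ADE16 was 9.77 in wild-type DED1 and 8.02 in ded1-cs, 10.89 in wild-type DED1 and 10.51 in ded1-ts, 9.53 in wild-type TIF1 and 9.28 in tif1-ts at 30 °C, and 9.46 and 9.12 at 37 °C. The mRNA levels of ADE16 in the same order were 9.5, 9.4, 10.9, 11.04, 9.3, 8.9, 9.3 and 8.6. In ded1-cs the mRNA of ADE16 was near level and its footprints were low, with a footprint difference of -1.74 (counting SE 0.09) and a TE difference of -1.65 in the authors' deposited table. The next lowest TE difference among the members in ded1-cs was that of ADE8, at -0.43 in the authors' deposited table.

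ADE17 spanned the widest range of footprint differences of the 10 genes. Its mRNA level was 10.8 in wild-type DED1 and 10.3 in ded1-cs, 10.2 in wild-type DED1 and 8.88 in ded1-ts, 10.2 in wild-type TIF1 and 9.0 in tif1-ts at 30 °C, and 9.2 and 10.7 at 37 °C. Its footprint levels in the same order were 11.66, 11.52, 11.37, 9.26, 8.31, 8.81, 7.79 and 10.49. Footprints were low in ded1-ts and high in tif1-ts at 37 °C relative to their wild types. In ded1-ts ADE17 had a footprint difference of -2.11 (counting SE 0.06), rank 60 from the bottom of 5238 genes, and an mRNA difference of -1.33 in the authors' deposited table. At 37 °C in tif1-ts its footprint difference was 2.70 (counting SE 0.06), rank 25 from the top of 4854 genes, and its mRNA difference 1.58 in the authors' deposited table. At 30 °C in that mutant, mRNA and footprints of ADE17 went opposite ways, at -1.14 and 0.49, which made a TE difference of 1.64, rank 26 from the top of 4833 genes in the authors' deposited table.

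The wild-type TE level of ADE17 differed widely between the strain sets. It stood 0.84 and 1.16 above the median gene in wild-type DED1 at 15 °C and 37 °C, and at -1.90 and -1.43 in wild-type TIF1 at 30 °C and 37 °C. In tif1-ts it stood at -0.18 at both temperatures, so the TE differences of ADE17 in that mutant were measured from a low wild-type level.

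The balance of the pair shifted between groups. ADE17 supplied 78.7% of the pair's footprints per kilobase in wild-type DED1 at 15 °C and 91.9% in ded1-cs, but 58.2% in wild-type DED1 at 37 °C and 29.6% in ded1-ts. In the TIF1 strains its footprint share was 30.0% in wild type and 41.9% in tif1-ts at 30 °C, and 23.9% and 72.1% at 37 °C. The mRNA shares of ADE17, in the same order of groups, were 71.1%, 65.1%, 38.1%, 18.3%, 65.1%, 51.7%, 48.2% and 81.1%. ADE17 was the major form in both assays in tif1-ts at 37 °C and in both strains at 15 °C. ADE16 was the major form in both assays in ded1-ts. In wild-type TIF1 at 37 °C ADE16 was the major form in footprints, while the mRNA split, with 48.2% ADE17, was near even. From the authors' deposited table, the TE difference of ADE17 minus that of ADE16 was 2.04 in ded1-cs, -0.28 in ded1-ts and, for tif1-ts, 1.49 at 30 °C and 0.83 at 37 °C.

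**Figure D3:**
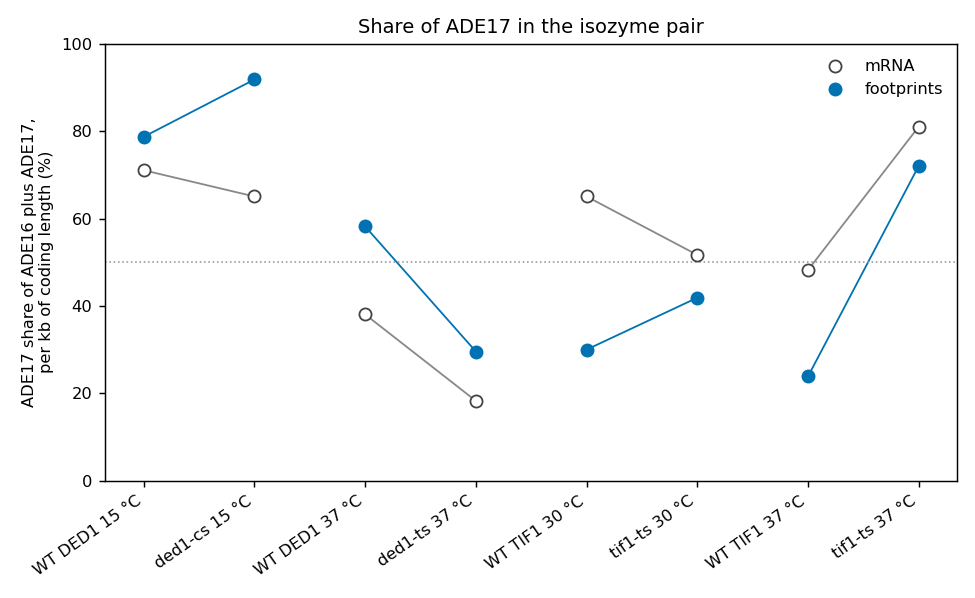
Percentage of ADE17 in the summed linear level of ADE16 and ADE17 per kilobase, for mRNA (open points) and footprints (filled points) in the 8 groups, with a line joining wild type and mutant of 1 table. Footprint shares run from 23.9% in wild-type TIF1 at 37 °C to 91.9% in ded1-cs, and the line is steepest in tif1-ts at 37 °C.

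ADE12 (YNL220W), the adenylosuccinate synthase, opens the branch from IMP to AMP. Its footprint level was 10.51 and 10.53 in wild-type DED1 and ded1-cs, 11.40 and 10.53 in wild-type DED1 and ded1-ts, 8.91 and 8.61 in wild-type TIF1 and tif1-ts at 30 °C, and 8.72 and 8.87 at 37 °C. The largest differences of ADE12 were in ded1-ts, where footprints differed by -0.88 and mRNA by -0.67 in the authors' deposited table. Its mRNA also differed by -0.40 in ded1-cs and -0.49 in tif1-ts at 30 °C in the authors' deposited table. Its mRNA difference in tif1-ts at 37 °C, 0.29 in the authors' deposited table, was the smallest of the 9 members that were higher.

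SHM2 (YLR058C), the cytosolic serine hydroxymethyltransferase, passes a carbon from serine to tetrahydrofolate. The mRNA level of SHM2 was 11.9 in wild-type DED1 and 11.4 in ded1-cs, 11.5 in wild-type DED1 and 10.04 in ded1-ts, 10.9 in wild-type TIF1 and 10.3 in tif1-ts at 30 °C, and 10.6 and 12.0 at 37 °C. Its footprint levels in the same order were 13.00, 13.35, 13.03, 10.82, 11.43, 11.35, 11.04 and 12.37. SHM2 was low in ded1-ts and high in tif1-ts at 37 °C in both assays. In ded1-ts its footprint difference of -2.21 (counting SE 0.03) was the lowest of the members, rank 47 from the bottom of 5238 genes, and its mRNA difference was -1.49 in the authors' deposited table. At 37 °C in tif1-ts, mRNA and footprints of SHM2 were higher by nearly the same amount, 1.32 and 1.34, so that TE differed by 0.02 in the authors' deposited table. Its mRNA differences in ded1-cs and tif1-ts at 30 °C were -0.47 and -0.68 and its TE differences 0.82 and 0.60 in the authors' deposited table.

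MTD1 (YKR080W), the cytosolic NAD-dependent methylenetetrahydrofolate dehydrogenase, oxidises the folate-bound carbon further. The mRNA level of MTD1 was 9.7 in wild-type DED1 and 9.4 in ded1-cs, 9.7 in wild-type DED1 and 9.27 in ded1-ts, 8.6 in wild-type TIF1 and 7.7 in tif1-ts at 30 °C, and 8.1 and 9.2 at 37 °C. Its footprint levels in the same order were 10.16, 10.50, 9.71, 9.15, 7.28, 7.36, 7.56 and 7.90. In tif1-ts its mRNA differed more than its footprints, whose differences were 0.08 (counting SE 0.12) at 30 °C and 0.34 (counting SE 0.09) at 37 °C, per the authors' deposited table. The mRNA differences were -0.91 at 30 °C and 1.10 at 37 °C, and the TE differences 0.99, just short of 2-fold, and -0.76 in the authors' deposited table. As for ADE17, its TE level in wild-type TIF1 at 30 °C was low, at -1.33 relative to the median gene, beside 0.44 in wild-type DED1 at 15 °C.

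The same mutant at both temperatures thus gave opposite mRNA differences for 9 of the 10 genes, lower at 30 °C and higher at 37 °C, and ADE16 was lower at both. Of the 4827 genes that entered at both temperatures, 12.8% had that order in mRNA and 27.1% had opposite mRNA signs in either order. Footprints were of opposite sign for 5 members, beside 30.5% of all genes, and TE for 7, beside 35.1%. The members were chosen with these values in view, so nothing is read from the counts. The comparisons at 30 °C and 37 °C use separate wild-type samples of the same strain. In wild-type TIF1 the members' median mRNA level stood 2.00 log2 units above the median gene at 30 °C and 1.8 at 37 °C, while in tif1-ts it stood 1.60 above at 30 °C and 2.25 above at 37 °C. Whether the temperatures differ in their effect was not tested.

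**Figure D4:**
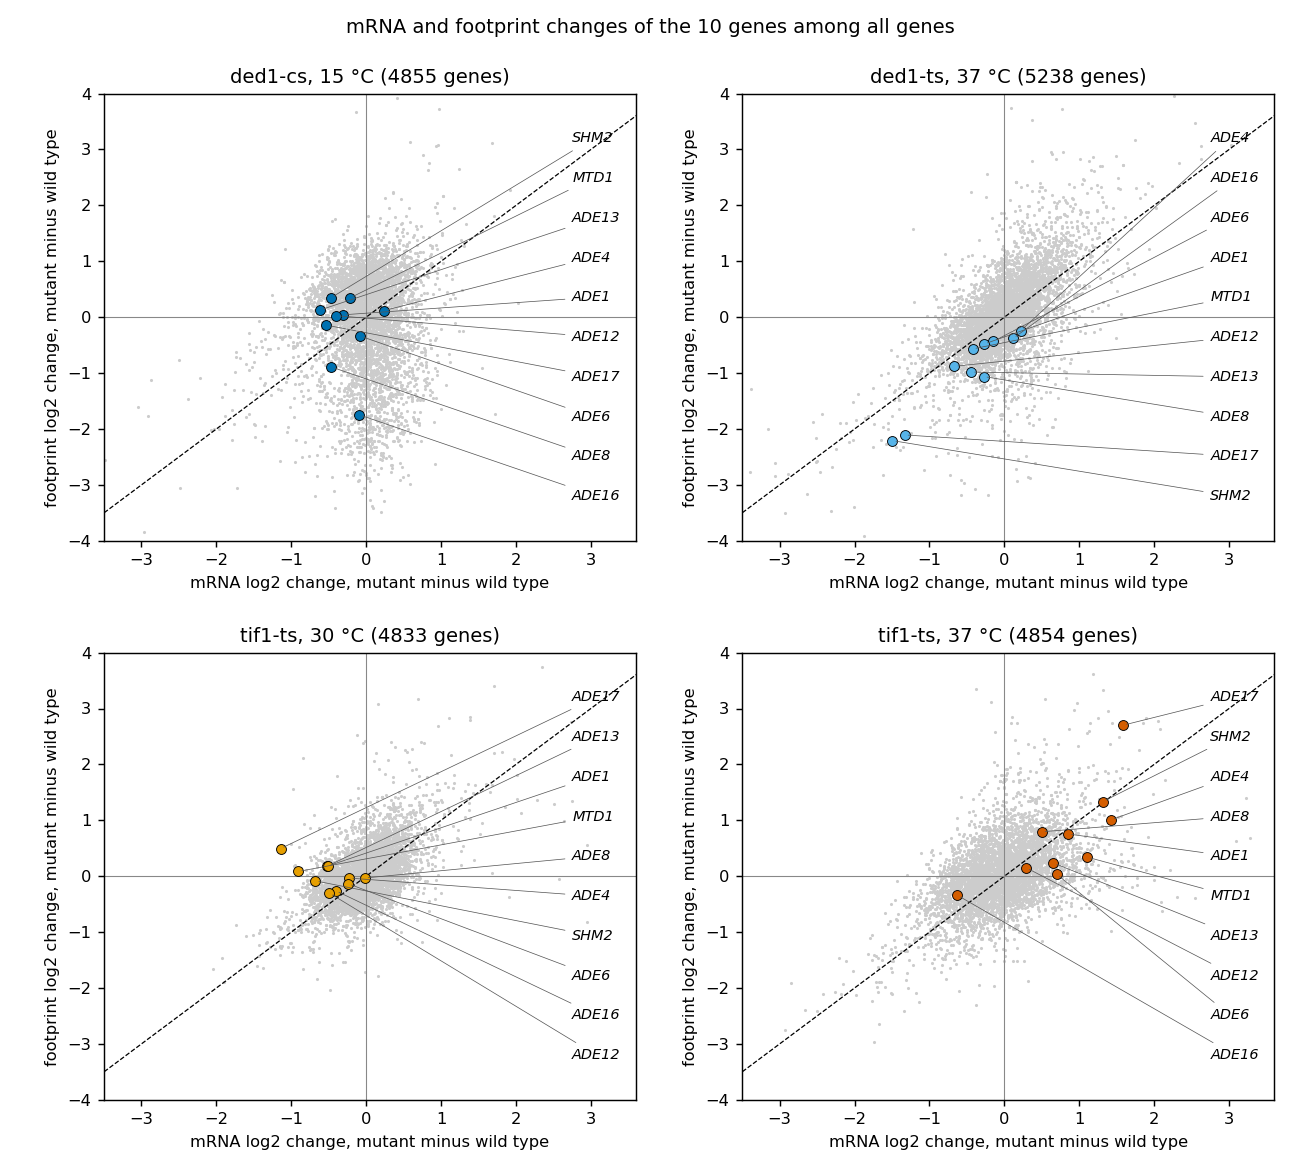
Footprint log2 difference against mRNA log2 difference of all genes that passed the abundance floor (grey) and of the 10 genes (coloured, named), 1 panel per comparison, with a dashed line where TE does not differ; 2, 6, 0 and 9 genes fall outside the axes. The 10 genes lie left of the vertical zero line in tif1-ts at 30 °C, and 9 of them lie right of it at 37 °C.

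The list of other enzymes of this route held ADE2 and ADE5,7, and also ADE3, which supplies the folate-bound formyl group. None of the 3 was past 2-fold in any assay or comparison. Over all genes, 0.844% to 17.4% were past 2-fold in a given measure, direction and comparison, so nothing is read from this count. ADE2 (YOR128C), the AIR carboxylase, had mRNA differences in the authors' deposited table of -0.38 in ded1-cs, -0.16 in ded1-ts and, for tif1-ts, -0.68 at 30 °C and 0.95 at 37 °C. For ADE5,7 (YGL234W), which encodes a pair of early ring-building activities, those values were -0.34, -0.12, -0.54 and 0.52 in the authors' deposited table. ADE3 (YGR204W), the trifunctional enzyme that makes formyl-tetrahydrofolate, had -0.18, -0.05, -0.14 and 0.60 in the authors' deposited table. All 3 were below 0 in mRNA in the first 3 comparisons and above 0 in tif1-ts at 37 °C, as were 8 of the 10 members, all but ADE4 and ADE16, and 3.18% of the 4746 genes that entered in all tables. ADE3 differed from the others in TE, which was below 0 throughout, from -0.69 to -0.20 in the authors' deposited table.

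The branch from IMP to GMP gave other values. The IMP dehydrogenase genes IMD2, IMD3 and IMD4, near-identical copies among which reads may be shared, and the GMP synthetase gene GUA1 all had footprint and mRNA differences below 0 in all 4 comparisons. In single comparisons, 46.4% to 50.7% of all genes were below 0 in footprints and 46.6% to 53.1% in mRNA. The share of all genes below 0 throughout was not counted, so nothing is read from this count. The footprint differences of IMD2 were -1.18, -1.59, -1.19 and -1.27 and those of IMD4 -1.76, -2.97, -1.08 and -1.95, per the authors' deposited table and in the order just given for ADE2. IMD3 had -0.93, -1.31, -0.51 and -0.76 and GUA1 -0.31, -0.67, -0.07 and -0.53 in the authors' deposited table. The median mRNA difference of these 4 genes in tif1-ts at 37 °C was -0.40, where that of the 10 members was 0.77, from the authors' deposited table.

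Of the 5 PRPP synthetase genes, PRS1 to PRS5, which supply the starting sugar, 2 had at least 2-fold lower footprints in ded1-cs, where 16.4% of all genes did. None was past 2-fold in the other comparisons, where 1.03% to 8.57% of all genes were in a given measure and direction. From the authors' deposited table, their median mRNA difference in tif1-ts at 37 °C was -0.11. PRS1 had the lowest TE difference of the 5 in ded1-cs, at -1.03, followed by PRS5 at -0.93 in the authors' deposited table.

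The known regulators of the pathway were measured as well. BAS1, the activator of the ADE genes, had TE differences in the authors' deposited table of -2.50 in ded1-cs, -1.99 in ded1-ts and, for tif1-ts, 0.19 at 30 °C and 0.50 at 37 °C. Its footprints differed by -1.82, -1.58, 0.68 and 1.08, and its mRNA by 0.69, 0.40, 0.49 and 0.58 in the authors' deposited table. Footprints of BAS1 were thus low in both ded1 mutants and higher in tif1-ts at both temperatures. Of all genes, 16.4% in ded1-cs and 6.19% in ded1-ts had footprints at least 2-fold lower, and 17.4% and 4.64% such a TE. In tif1-ts at 37 °C, 6.37% had footprints at least 2-fold higher. Its partner PHO2 had TE differences of 0.23, -0.04, -0.32 and -0.15 in the authors' deposited table. GCN4, which also acts on several ADE genes, had TE differences of -0.31, 2.94, -0.03 and 0.92 in the authors' deposited table. A link between these values and those of the members was not tested.

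Among 21 other genes of folate, glycine and serine one-carbon metabolism, 2 had at least 2-fold higher mRNA in tif1-ts at 37 °C, namely GCV1 and GCV2 of the mitochondrial glycine cleavage complex. Their mRNA differences were 1.85 and 1.54 and their footprint differences 2.74 and 1.75 in the authors' deposited table. The median mRNA difference of the list there was -0.08 in the authors' deposited table, and 1 gene was 2-fold lower. Over all genes, 3.79% were 2-fold higher and 3.23% lower in mRNA, and nothing is read from these small counts. In ded1-cs the lowest TE differences of the list were those of MET12 and MIS1, at -2.20 and -1.93 in the authors' deposited table. SHM1, the mitochondrial counterpart of SHM2, was looked up in every comparison after its values had been seen, and had TE differences of -0.96, -1.01, -0.64 and -0.85 across the 4 comparisons in the authors' deposited table, where SHM2 had 0.82, -0.71, 0.60 and 0.02.

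**Figure D5:**
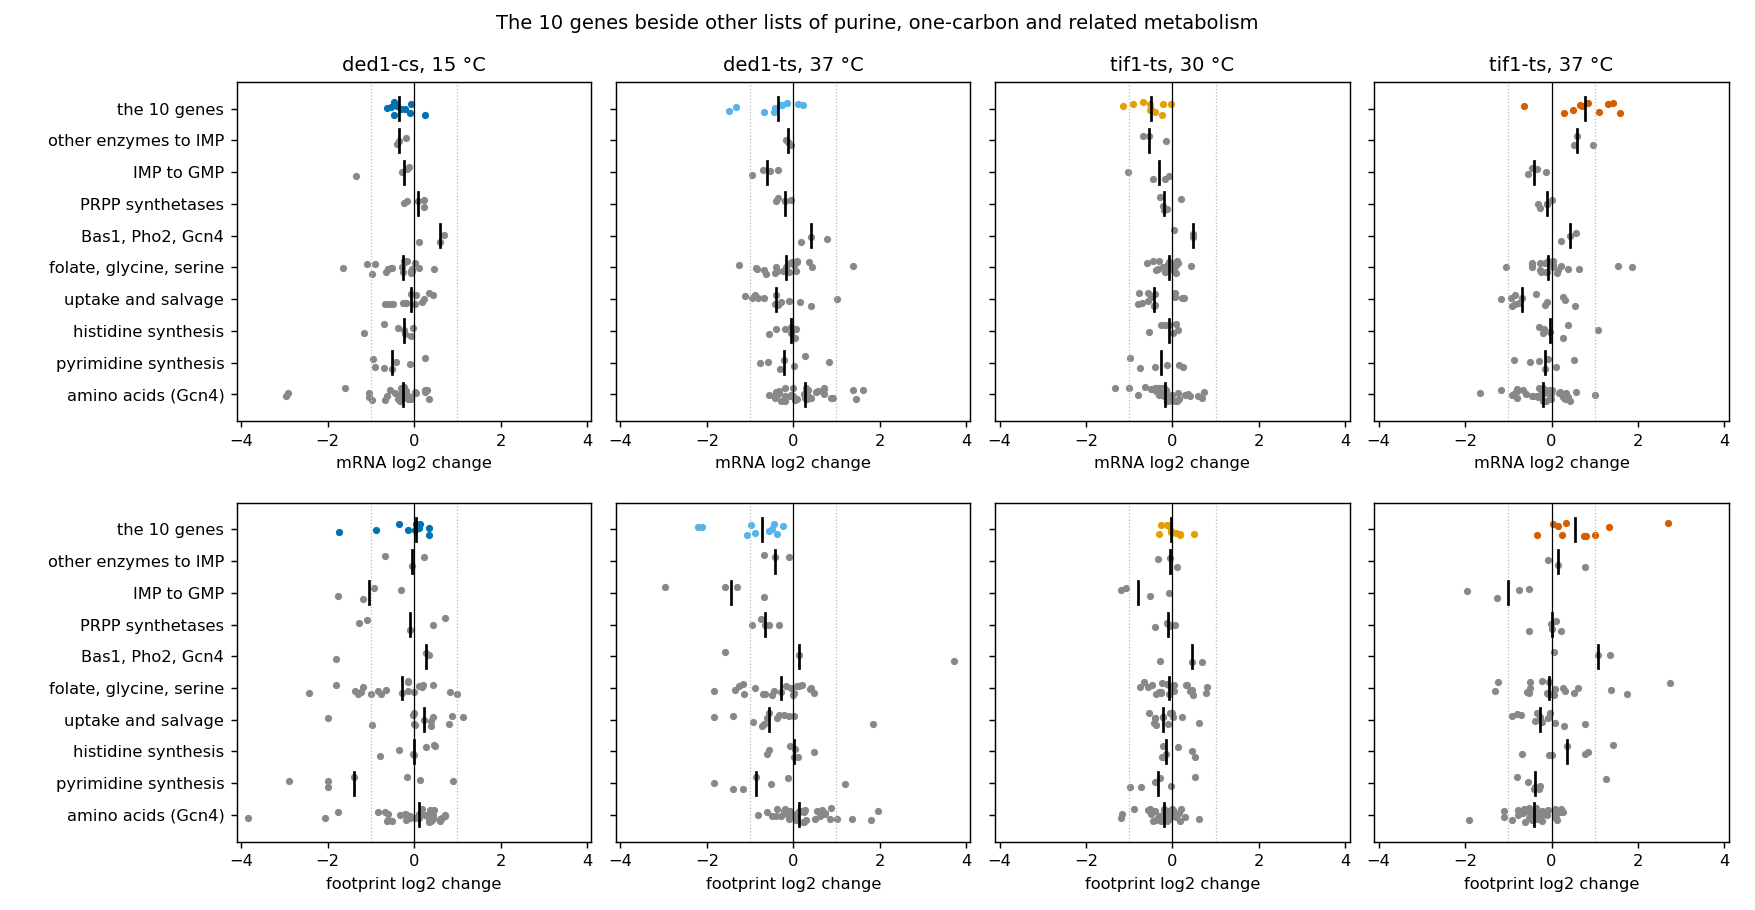
Log2 differences in mRNA (top) and footprints (bottom) for the 10 genes (coloured) and 9 lists of related metabolism (grey), 1 panel per comparison, with a bar at each list's median and dotted lines at 2-fold. In tif1-ts at 37 °C the mRNA median of the 10 genes is 0.77 and that of the other enzymes to IMP, with ADE3, 0.60. Those of the GMP branch and of salvage are -0.40 and -0.68.

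Genes most like the members were sought by the root mean square of the 8 mRNA and footprint differences from the members' medians, over 2331 other genes of abundance 100 or more in all tables. The closest was ADE2 with 0.18, followed by the mating kinase gene FUS3 with 0.27, ADE5,7 with 0.30, SER2 of serine synthesis with 0.31 and the mating G protein gene GPA1 with 0.32. Measured on the 4 TE differences alone, 0 of these 5 genes were among the closest 5. The members' own distances were taken to medians that they helped to set. Among them ADE1 lay closest with 0.14 and ADE13 next with 0.20. MTD1 had 0.24, ADE12 0.27, ADE6 0.29, ADE8 0.41 and ADE4 0.45. SHM2, ADE16 and ADE17 lay farthest, with 0.76, 0.89 and 1.06. ADE8, ADE4, SHM2, ADE16 and ADE17 were thus farther from the members' medians than GPA1, so the pattern was not shared by all members.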

How the data were processed

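mRNA and RNase I footprint libraries of whole yeast cells were made per the labels' protocols. The authors deposited log2 levels per gene for footprints and mRNA of wild type and mutant, and log2 differences for footprints, mRNA and TE; mRNA levels were mostly printed to 1 decimal, so differences were taken from the deposited columns. The sources used here do not give the counting, the normalization or how replicates were combined. CASAVA 1.8, Bowtie2 2.0.6, TopHat2 2.0.7, DESeq and sacCer2 are named without roles, per the submitters' processing notes.

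Genes with a mean abundance below 10 in either assay, or with a footprint value that stood for 0 reads, were left out. The value of 1 read, and from it depth and counting errors, was estimated from the spacing of low footprint values. Of these values, 38.0% (ded1-cs) to 100% lay within 0.1 of a whole read. The method was tested on simulated data with a pair of libraries of nearly equal scaling. That simulation does not cover columns with fewer values near whole reads, so reads and counting errors in ded1-cs are rough estimates. The same holds to a lesser degree for tif1-ts at 30 °C (69.2%), wild-type DED1 at 15 °C (76.5%) and wild-type TIF1 at 30 °C (84.9%). Symbols were those that the authors deposited, and coding lengths were read from RefSeq gene data for assembly R64. That assembly differs from the authors' build, so no coordinates are given.

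Differences of at least 2-fold were counted. The plan named count tests on replicates; they were not run, because 1 log2 value per group was deposited. The members and gene lists were chosen with earlier results of these data known. All members were named, with all genes of lists of up to 5. Of longer lists the rule gave the 2 lowest and 2 highest TE and mRNA differences at abundance 100 or more, of which only some are named. The 5 most alike genes, DED1 and TIF2 were also in the rule. SER1, URA3, URA6 and, in ded1-cs, LYS2 were not analysed here. Python 3.11.15 with pandas 2.3.3 and numpy 2.4.6 was used.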

Additional observations from a re-analysis of the deposited data

Results flagged for a closer look

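In tif1-ts the difference from wild type had opposite signs at 30 °C and 37 °C, each of at least 1.5-fold, for 3 of the members' mRNA values and 1 of their TE values, and the difference between the temperatures was not tested. Over all 4827 genes that entered at both temperatures, 0.352% met this in mRNA and 0.994% in TE. As the members were chosen with these values in view, nothing is read from the counts. ADE17 mRNA went from -1.14 at 30 °C to 1.58 at 37 °C in the authors' deposited table, 2.73 apart on the log2 scale. MTD1 mRNA went from -0.91 to 1.10 in the authors' deposited table, 2.01 apart. SHM2 mRNA went from -0.68 to 1.32 in the authors' deposited table, 1.99 apart. MTD1 TE went from 0.99 to -0.76 in the authors' deposited table, a difference of -1.75. Each comparison had its own wild-type samples, and the 37 °C tif1-ts footprints were the shallowest of the study at 3.88 M reads.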

How the results depend on the processing

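No paired analysis was possible because the tables hold no replicate columns; leaving out a replicate and the replicate block were not run for the same reason. Centred on all genes, the members' median TE difference in ded1-cs was 0.27, and the other medians kept within 0.1. Means in place of medians gave TE 0.083 in ded1-cs and 0.52 in tif1-ts at 30 °C, mRNA -0.47 in ded1-ts, and footprints -0.21 in ded1-cs, -0.93 in ded1-ts and 0.70 in tif1-ts at 37 °C. With abundance of 1000 or more, 5 members stayed in each DED1 table and SHM2 alone in the TIF1 tables: mRNA medians became -0.47 in ded1-cs, -0.15 in ded1-ts, -0.68 and 1.32 in tif1-ts at 30 °C and 37 °C, footprints -0.43 in ded1-ts and 1.34 in tif1-ts at 37 °C, and TE 0.60 at 30 °C and, with the sign turned, 0.019 at 37 °C. Without ADE16 and ADE17, an alternative chosen after seeing the data, the TE median was -0.37 in ded1-ts and -0.28 in tif1-ts at 37 °C. At 1.5-fold, counts of members, each with the share of all genes, became in TE 2 higher in ded1-cs (25.6%), 3 lower in ded1-ts (10.4%), 5 higher in tif1-ts at 30 °C (9.29%) and 2 lower at 37 °C (11.4%). In mRNA they became 1 lower in ded1-cs (7.27%), 3 lower in ded1-ts (9.97%), 3 lower in tif1-ts at 30 °C (6.6%), and 1 lower (14.3%) and 7 higher (11.6%) at 37 °C. In footprints they became 2 lower in ded1-cs (25.4%), 5 lower in ded1-ts (16%) and 5 higher in tif1-ts at 37 °C (16%). After centring, 23 of the 24 counts at 2-fold were identical, and footprints higher in tif1-ts at 37 °C went from 3 to 2, without ADE4; with an abundance floor of 100 the share of all genes past 2-fold differed by over 1.5 times in 9 of 24. Without length scaling, 46 of 160 places in the order of levels were unchanged. From the 4 TE differences alone, 0 of the 5 most alike genes were shared. The cause of these shifts was not tested, beyond the smaller number of members.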

Other observations

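The histidine route meets purine synthesis at AICAR, and HIS4, which encodes 3 of its activities, had mRNA differences in the authors' deposited table of -1.16 in ded1-cs, -0.20 in ded1-ts and, for tif1-ts, -0.08 at 30 °C and 1.08 at 37 °C. The list of 7 histidine genes had a median mRNA difference of -0.03 in tif1-ts at 37 °C in the authors' deposited table, and HIS4 was the only one past 2-fold in mRNA, where 3.79% of all genes were 2-fold higher. Among 13 genes of purine uptake, salvage and interconversion, the median mRNA difference there was -0.68 in the authors' deposited table. The AMP deaminase gene AMD1 had the lowest TE differences of that list in the ded1 mutants, -2.42 in ded1-cs and -1.03 in ded1-ts in the authors' deposited table. In pyrimidine synthesis, URA2 had TE differences of -2.81, -1.65, -0.29 and -0.93 in the authors' deposited table. It stood lowest of the list in every comparison but tif1-ts at 30 °C. Enzymes of amino acid synthesis under Gcn4 had median mRNA differences, from the authors' deposited table, of -0.26 in ded1-cs, 0.28 in ded1-ts and, for tif1-ts, -0.17 at 30 °C and -0.20 at 37 °C. The 10 purine and one-carbon genes had -0.35, -0.35, -0.50 and 0.77 in the authors' deposited table.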
